A study of Sus scrofa with 32 samples.

Results

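The macrophage genes LYVE1, TYROBP, CSF1R, CD68, MRC1, C1QA, CD163, C1QB, C1QC and AIF1 were followed in testis RNA of male pigs. The 10 genes were looked up by symbol among the 25322 gene identifiers that the count tables hold, of which 11804 have a symbol. An identifier was found for 6 of the 10: LYVE1 (ENSSSCG00000029886), TYROBP (ENSSSCG00000002919), CSF1R (ENSSSCG00000014441), CD68 (ENSSSCG00000017956), MRC1 (ENSSSCG00000011038) and C1QA (ENSSSCG00000003524). CD163, C1QB, C1QC and AIF1 had none in the symbol table and were not analysed here. The list, and the setting of LYVE1 against TYROBP, were chosen by earlier estimates of these same pigs across diet, AS group and androstenone. For LYVE1 and TYROBP those values are therefore given as a description, with no test. C1QA and MRC1 belong to the same list, so their p-values for diet, AS group and androstenone carry that choice too.

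Macrophages of the testis lie in the interstitial tissue, beside the Leydig cells that make androgens, and, as known from the mouse, also around the seminiferous tubules. They take up debris and iron, and in rodents they are held to support steroid production. LYVE1 is a hyaluronan receptor found on lymphatic endothelium and on a class of tissue-resident macrophages near vessels. TYROBP (DAP12) is an adaptor that carries signals from activating receptors of myeloid and natural killer cells. CSF1R is the receptor for the growth factor on which most macrophages depend, CD68 is a lysosomal membrane protein, MRC1 (CD206) is the mannose receptor, and C1QA is the A chain of complement C1q, which macrophages make in large part.

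The testes came from 32 Danish crossbred males (Duroc with Landrace/Yorkshire), slaughtered at a weight of about 100 kg. AS stands for androstenone and skatole, the compounds behind boar taint, and the submitters had sorted the pigs into High AS and Low AS. The control diet was eaten by 10 High AS and 7 Low AS pigs. Feed with 15% chicory was given for 3 days before slaughter to 7 High AS pigs, 7 Low AS pigs and 1 pig with no AS group. Androstenone ran from 0.67 to 7.77 mg/kg in High AS control, 1.12 to 5.9 mg/kg in High AS chicory, 0 to 1.04 mg/kg in Low AS control and 0 to 1.07 mg/kg in Low AS chicory pigs. The pigs came from 14 sows, 7 of which had offspring in both AS groups, so the pigs are separate animals but not unrelated ones.

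Reads counted on genes ran from 1855174 to 5993637 in 24 libraries with plain names and from 10585625 to 20349500 in 8 libraries whose names carry an extra number. The numbered set held 6 High AS control or chicory pigs and 2 Low AS control pigs, and no Low AS chicory pig, so library set was a term in each fit. The tissue label fitted its markers, since INSL3, a Leydig cell hormone, was read at 72.7 to 2530 CPM (read counts scaled to the library's total) in every pig. The library of Low AS chicory replicate 1 stood apart in germ cell content. Its 10 spermatid genes summed to 2960 CPM, against 11500 to 56500 CPM in 30 other pigs, and its Sertoli cell genes to 6930 CPM, against 967 to 4440 CPM. High AS control replicate 3, which an earlier analysis of these data had also set apart, was inside those ranges, at 37900 and 2190 CPM. Values are given with and without these 2 libraries where the text says so.

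The members were thinly covered. LYVE1 had 688 reads over all pigs (0 to 157 a library), C1QA 947 (4 to 97) and MRC1 7238 (56 to 756). TYROBP had 4 to 52 reads a library. CSF1R had 93 reads (0 to 7 a library, with a read in 27 of 32) and CD68 had 111 (0 to 13, with a read in 28 of 32). The 4 genes LYVE1, TYROBP, C1QA and MRC1 passed the filter on low counts and were tested, while CSF1R and CD68 did not pass. In bulk tissue, fewer cells of a type and less RNA per cell cannot be told apart.

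Across the pigs, CPM had a minimum, median and maximum of 0, 2.75 and 10.3 for LYVE1, 0.994, 2.9 and 7.07 for TYROBP, 0.987, 4.02 and 22.2 for C1QA, and 21.1, 32.3 and 74.4 for MRC1. CSF1R had a median of 0.442 CPM and a maximum of 1.82 CPM, and CD68 a median of 0.417 CPM and a maximum of 2.25 CPM. The extremes did not fall on the same pigs. LYVE1 was highest in High AS control replicate 8, with 157 reads, and had no read in Low AS chicory replicate 1, where a count of 0 allows up to 1.52 CPM (3 reads, the count of CSF1R in that library). TYROBP was highest in Low AS chicory replicate 1. C1QA was highest in Low AS chicory replicate 2, at 22.2 CPM, and High AS chicory replicate 4, at 21.4 CPM. MRC1 was highest at 74.4 CPM in both High AS control replicate 9 and Low AS chicory replicate 3.

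**Figure D1:**
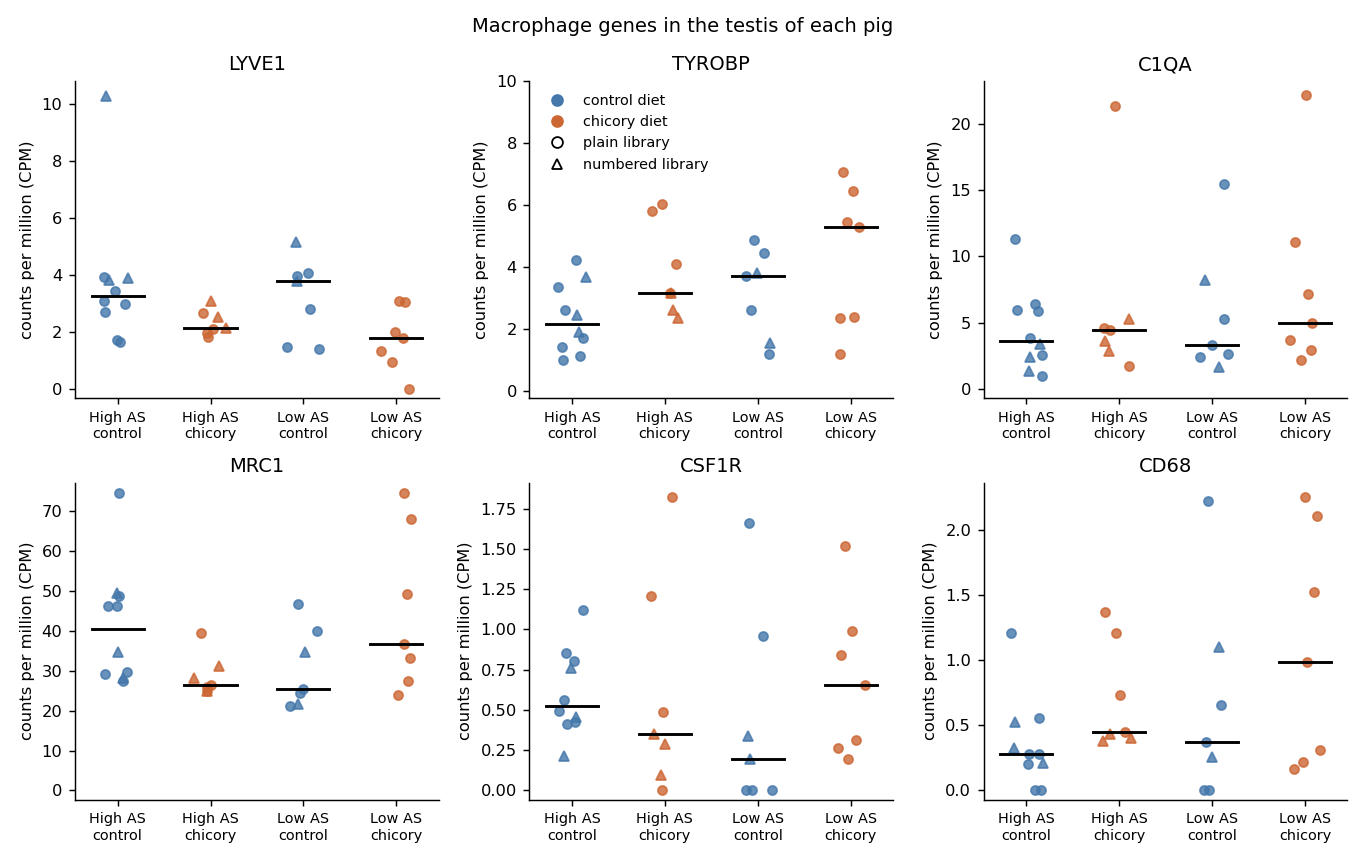
CPM (vertical axis) of the 6 macrophage genes with an identifier, in the 4 groups of pigs (horizontal axis). Each point is 1 pig, circles are plain and triangles numbered libraries, blue is control and orange chicory diet, and the black line is the group median. LYVE1 points of both chicory groups sit at or under 3.09 CPM, while control pigs reach 10.3 CPM.

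On the chicory diet LYVE1 was lower and TYROBP higher than on the control diet. The 17 control pigs had LYVE1 from 1.39 to 10.3 CPM with a median of 3.43, and the 14 chicory pigs from 0 to 3.09 CPM with a median of 2.05. The ranges overlap, with chicory pigs confined to the lower part of the control range or under it. TYROBP ran from 0.994 to 4.89 CPM with a median of 2.62 on the control diet and from 1.19 to 7.07 CPM with a median of 3.64 on chicory. Its lowest values were alike in both diets, and the chicory pigs reached higher. The 3 highest TYROBP values, all in chicory pigs, came from libraries with 39.6%, 34.4% and 35.4% of reads assigned to no gene. Plain libraries ranged from 22.3% to 39.6%. LYVE1 in those 3 was 0, 3.09 and 2.11 CPM. Against this, TYROBP was 1.13 CPM in High AS control replicate 7 (35.9%) and 5.45 CPM in Low AS chicory replicate 3 (27%). The part of this library trait in either gene was not tested. The fitted log2 fold of chicory against control was -0.70 (SE 0.248) for LYVE1 and 0.53 (SE 0.254) for TYROBP, from edgeR's quasi-likelihood fit over 13025 genes with AS group and library set as terms.

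The log2 difference between LYVE1 and TYROBP within a pig put both shifts in one value. It had a median of 0.41 in control pigs (range -1.48 to 2.25) and -0.85 in chicory pigs (range -4.51 to 0.48). In the plain libraries the medians were 0.28 (n = 12) and -1.03 (n = 11). In the numbered libraries they were 0.58 (n = 5) and -0.05 (n = 3). The value was lower on chicory in both library sets, although the numbered set was small. In that set TYROBP was alike on both diets, with a mean of 2.68 CPM on control and 2.72 CPM on chicory. The lower value there lay in LYVE1, so the rise of TYROBP was seen in the plain libraries only.

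**Figure D2:**
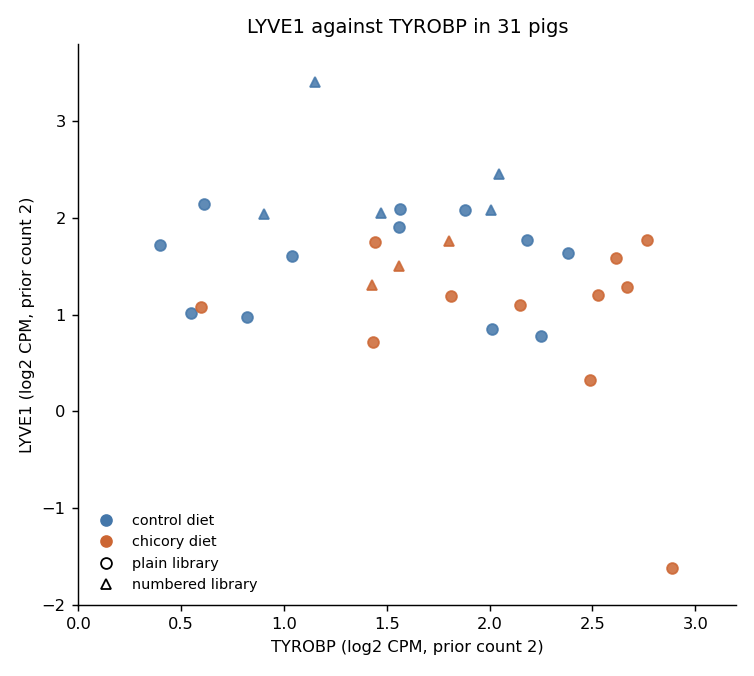
LYVE1 (vertical axis) against TYROBP (horizontal axis), both as log2 CPM with a prior count of 2, in the 31 pigs with an AS group. Orange chicory pigs lie more toward the lower right and blue control pigs more toward the upper left, with overlap, and the point at the bottom right is Low AS chicory replicate 1, which had no LYVE1 read.

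LYVE1 in the 5 numbered control libraries was 3.79, 3.83, 3.91, 5.16 and 10.3 CPM. In the 3 numbered chicory libraries it was 2.15, 2.52 and 3.07 CPM. These groups of 5 and 3 pigs did not overlap. Groups this small can separate by chance, LYVE1 was chosen on these same pigs, and the share of all genes that separate was not counted. The separation is therefore a description only. In the plain libraries the medians were 2.89 CPM on control and 1.96 CPM on chicory, and the ranges overlapped, at 1.39 to 4.08 CPM and 0 to 3.09 CPM. Over the plain libraries alone the LYVE1 fold was -0.51 (SE 0.299) and the TYROBP fold 0.69 (SE 0.318). Without the 2 libraries set apart the folds were -0.67 (SE 0.228) and 0.53 (SE 0.256).

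The chicory pig with no AS group does not enter those fits. Its LYVE1 was 3.92 CPM from 14 reads, above each of the 14 other chicory pigs, and its TYROBP was 2.52 CPM. With all 32 pigs and no AS term, a setting chosen after seeing the data, the folds were -0.62 (SE 0.244) for LYVE1 and 0.50 (SE 0.25) for TYROBP. The LYVE1 fold was -0.80 (SE 0.334) within High AS and -0.56 (SE 0.387) within Low AS. The TYROBP fold was 0.66 (SE 0.344) within High AS and 0.35 (SE 0.391) within Low AS. Each gene kept its sign in both AS groups, with wider errors in Low AS. The AS by diet term over all genes, described below for MRC1, gave -0.24 (SE 0.518) for LYVE1 and 0.31 (SE 0.523) for TYROBP.

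Neither C1QA nor MRC1 was called for diet at an adjusted p of 0.05 by the edgeR test with Benjamini-Hochberg adjustment, and over all genes 1 of 13025, or 0.00768%, was called. At an unadjusted p under 0.05 there were 114 genes, or 0.875%. C1QA had a log2 fold of 0.39 (SE 0.36, adjusted p = 1), with CPM of 0.987 to 15.5 (median 3.36) on control and 1.71 to 22.2 (median 4.51) on chicory. The groups overlapped over most of their range. Without High AS chicory replicate 4 the C1QA fold was 0.12, and with sow as a fixed block it was 1.07 (SE 0.285, adjusted p = 0.65). MRC1 had a fold of -0.05 (SE 0.189, adjusted p = 1), with 21.1 to 74.4 CPM (median 34.6) on control and 23.9 to 74.4 CPM (median 29.6) on chicory. The median fold of the 4 tested members was 0.17, against 0.01 over all genes tested.

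The genes under the filter were pooled by diet. CSF1R had 53 reads over the control pigs, or 0.485 CPM (95% exact Poisson interval 0.363 to 0.635), and 40 over the chicory pigs, or 0.474 CPM (0.339 to 0.646). CD68 had 52 reads, or 0.476 CPM (0.356 to 0.624), on control and 56 reads, or 0.664 CPM (0.502 to 0.863), on chicory. Both pairs of intervals overlap, and they cover counting error only. Fitted with no filter on low counts, the folds were -0.01 (SE 0.307) for CSF1R and 0.62 (SE 0.46, adjusted p = 1) for CD68.

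The wider macrophage and vessel lists showed no called gene for diet. Of 7 tested resident macrophage genes, 4 had a higher and 3 a lower estimate on chicory, with a median log2 fold of 0.01. MSR1, a scavenger receptor, had 0.22 (SE 0.287) and STAB1, a scavenger receptor of sinusoidal endothelium and macrophages, had -0.19 (SE 0.151). Of 9 tested myeloid and monocyte genes, 7 were higher and 2 lower, with a median of 0.09. FCER1G, an adaptor of Fc receptors that works like TYROBP, had 0.24 (SE 0.287), and PTPRC, the pan-leukocyte phosphatase CD45, had 0.36 (SE 0.238). LAPTM5 of the same list went the other way, at -0.29 (SE 0.175). No gene of either list had an unadjusted p under 0.05.

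LYVE1 also marks lymphatic vessels, and the 6 tested lymphatic endothelium genes had folds from -0.08 to 0.04. PROX1, the master regulator of lymphatic identity, had -0.01 (SE 0.2), and FLT4, the receptor VEGFR3, had 0.04 (SE 0.281). Their levels were unlike, with a median of 43.5 CPM for PROX1 and 3.1 CPM for FLT4. Which cells gave the PROX1 reads was not tested. PDPN was read 91 times over 23 of 32 libraries and was not tested. Of the other lists, the 8 blood endothelium genes all had lower estimates (median -0.22) and the 8 peritubular genes all higher ones (median 0.17), none of them called. Among the 10 Leydig genes 9 had lower estimates, and INSL3 had -0.28 (SE 0.28, adjusted p = 1). The part of these cell types in the LYVE1 and TYROBP values was not tested. With INSL3 as a covariate the diet folds were -0.64 (SE 0.249) for LYVE1 and 0.64 (SE 0.23) for TYROBP.

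Between AS groups the estimates of the 4 tested members lay within 1 SE of 0. LYVE1 ran from 1.65 to 10.3 CPM (median 2.71) in the 17 High AS pigs and from 0 to 5.16 CPM (median 2.39) in the 14 Low AS pigs. TYROBP ran from 0.994 to 6.03 CPM (median 2.62) in High AS and from 1.19 to 7.07 CPM (median 3.75) in Low AS. The groups overlapped for both genes. The log2 fold of High AS against Low AS was 0.09 (SE 0.251) for LYVE1 and -0.25 (SE 0.261) for TYROBP. With INSL3 as a covariate the LYVE1 fold was -0.02 (SE 0.266) and the TYROBP fold -0.44 (SE 0.242).

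Neither C1QA nor MRC1 was called for AS group by edgeR, and over all genes the share called was 0%. At an unadjusted p under 0.05 there were 300 genes, and limma voom and DESeq2 called 0. C1QA had a fold of -0.25 (SE 0.363, adjusted p = 0.988), with medians of 3.83 CPM in High AS and 4.32 CPM in Low AS. It was -0.71 (SE 0.404) with carcass weight as a covariate in 29 pigs. Leaving out High AS chicory replicate 4 gave -0.53. The sign stayed in 30 of 31 fits that left out 1 pig, and turned only without Low AS control replicate 3, at 0.06. MRC1 had 0.02 (SE 0.195, adjusted p = 0.993). The median fold of the 4 was -0.11, against 0.01 over all genes. CSF1R was read at 0.477 CPM (95% exact Poisson interval 0.362 to 0.617) in High AS and 0.486 CPM (0.339 to 0.676) in Low AS pooled. CD68 was read at 0.436 CPM (0.327 to 0.57) in High AS and 0.764 CPM (0.575 to 0.994) in Low AS, intervals that do not overlap but cover counting error and not the spread between pigs. In the fit with no filter on low counts the CD68 fold was -0.71 (SE 0.463, adjusted p = 0.995). Of the resident macrophage genes 3 of 7 and of the myeloid genes 2 of 9 had higher estimates in High AS, with 0 called.

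The androstenone concentration, taken as log2 of mg/kg plus 0.5, gave slopes within 1 SE of 0. The log2 change per doubling was -0.01 (SE 0.126) for LYVE1 and -0.03 (SE 0.133) for TYROBP. C1QA had -0.11 (SE 0.203, adjusted p = 0.924) and MRC1 -0.01 (SE 0.0977, adjusted p = 0.986) in the edgeR fit. Neither was called, and over all 13199 genes tested 3, or 0.0227%, were called. The C1QA slope was -0.40 (SE 0.244, adjusted p = 1) with carcass weight as a covariate and -0.34 (SE 0.161, adjusted p = 0.357) with INSL3 as one, so its size depended on the terms in the fit. The 7 resident macrophage genes had slopes with a median of -0.05 and the 9 myeloid genes a median of -0.02, and 0 of either list were called.

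MRC1 was the member whose diet difference took opposite signs in the AS groups. Its CPM had a median of 40.4 (27.5 to 74.4) in High AS control and 26.4 (24.9 to 39.5) in High AS chicory pigs. In Low AS pigs the median was 25.5 (21.1 to 46.6) on control and 36.8 (23.9 to 74.4) on chicory. The ranges overlapped in both AS groups. The log2 diet fold was -0.51 (SE 0.231) within High AS and 0.51 (SE 0.254) within Low AS, and the AS by diet term was -1.02 (SE 0.349, unadjusted p = 0.00616, adjusted p = 0.951 in edgeR). It did not pass the adjustment, and 0% of 13025 genes were called for this term, with 473 genes at an unadjusted p under 0.05 and 0 called by limma voom or DESeq2. Under the 6 other settings the MRC1 term ran from -1.12 to -0.93. The interaction of C1QA was 0.48 (SE 0.763, adjusted p = 0.956). As the list was chosen with estimates of these same pigs known, the unadjusted p of MRC1 is a description only.

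**Figure D3:**
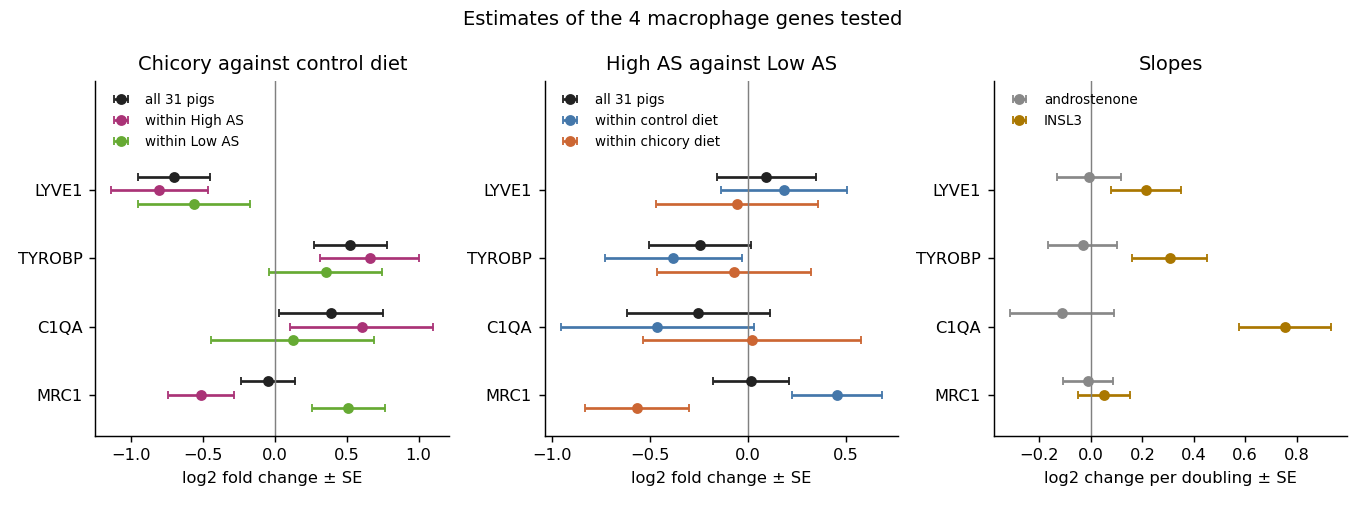
Estimates (points) and SE (bars) of LYVE1, TYROBP, C1QA and MRC1: log2 fold of chicory against control diet in all pigs and within each AS group (left), log2 fold of High AS against Low AS in all pigs and within each diet (middle), and log2 change per doubling of androstenone plus 0.5 mg/kg and of INSL3 (right). LYVE1 lies left of 0 and TYROBP right of 0 for diet, MRC1 is split at -0.51 and 0.51 between AS groups, and the INSL3 slope of C1QA lies farthest from 0 at 0.76.

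With INSL3, used as a stand-in for Leydig cell content, C1QA rose. Its slope was 0.76 log2 per doubling of INSL3 (SE 0.179, adjusted p = 0.0113, edgeR over all 32 pigs and 13408 genes). Pigs share sows, and the call was lost with sow as a random effect (adjusted p = 0.0966), with sow as a fixed block (adjusted p = 0.577) and with limma voom (adjusted p = 0.0841). The 3 other slopes were also above 0 but did not pass, at 0.31 (SE 0.146, adjusted p = 0.252) for TYROBP, 0.21 (SE 0.137, adjusted p = 0.383) for LYVE1 and 0.05 (SE 0.102, adjusted p = 0.798) for MRC1. The LYVE1 slope was 0.05 without High AS control replicate 8 and 0.07 (SE 0.194) in plain libraries alone. So 1 of the 4 tested members was called, where 2.72% of all genes were called and 2.55% were called with a slope above 0. The median slope of the 4 was 0.26, against 0.02 over all genes tested. CSF1R, fitted with no filter on low counts, had 0.66 (SE 0.213, adjusted p = 0.121).

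Single pigs varied widely around that slope. At the low end, Low AS control replicate 7 had 72.7 CPM of INSL3 and 1.67 CPM of C1QA. Low AS chicory replicate 6, with 322 CPM of INSL3, had 2.18 CPM of C1QA. At the high end, Low AS control replicate 5 had 2530 CPM of INSL3 and 15.5 CPM of C1QA, but High AS chicory replicate 3, with 2380 CPM of INSL3, had 4.56 CPM. The 2 highest C1QA values, 22.2 and 21.4 CPM, were in pigs with 1320 and 1600 CPM of INSL3, below the 3 highest INSL3 values.

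Over the 24 plain libraries, Pearson's r of C1QA with INSL3 was 0.65 (permutation p = 0.00052, adjusted p = 0.0104) and Spearman's rho was 0.75 (permutation p = 5e-05, adjusted p = 0.002), among 40 correlation tests. Without the 2 pigs farthest from the median of C1QA r was 0.67. Over the 8 numbered libraries r was 0.27 (exact permutation p = 0.524) and rho was -0.02 (exact permutation p = 0.977). The difference between the library sets was not tested. Numbered libraries were also lower in INSL3, with a median of 423 CPM against 950 CPM in plain ones, and in C1QA, with 3.12 against 4.51 CPM. The slope in plain libraries alone was 1.06 (SE 0.211, adjusted p = 0.00302).

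The C1QA call held without any single pig, with slopes of 0.69 to 0.88 and an adjusted p of 0.00373 to 0.0437 in edgeR. In the fits that lost the call the slope was 0.56 for random sow effects, 0.50 for fixed sow blocks and 0.58 for limma voom. With the mean of the Leydig list in place of INSL3 it was 1.34 (SE 0.274, adjusted p = 0.000945). Adding AS group and diet to the fit gave 0.88 (SE 0.177, adjusted p = 0.00231), and TYROBP then had 0.43 (SE 0.141, adjusted p = 0.0518).

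**Figure D4:**
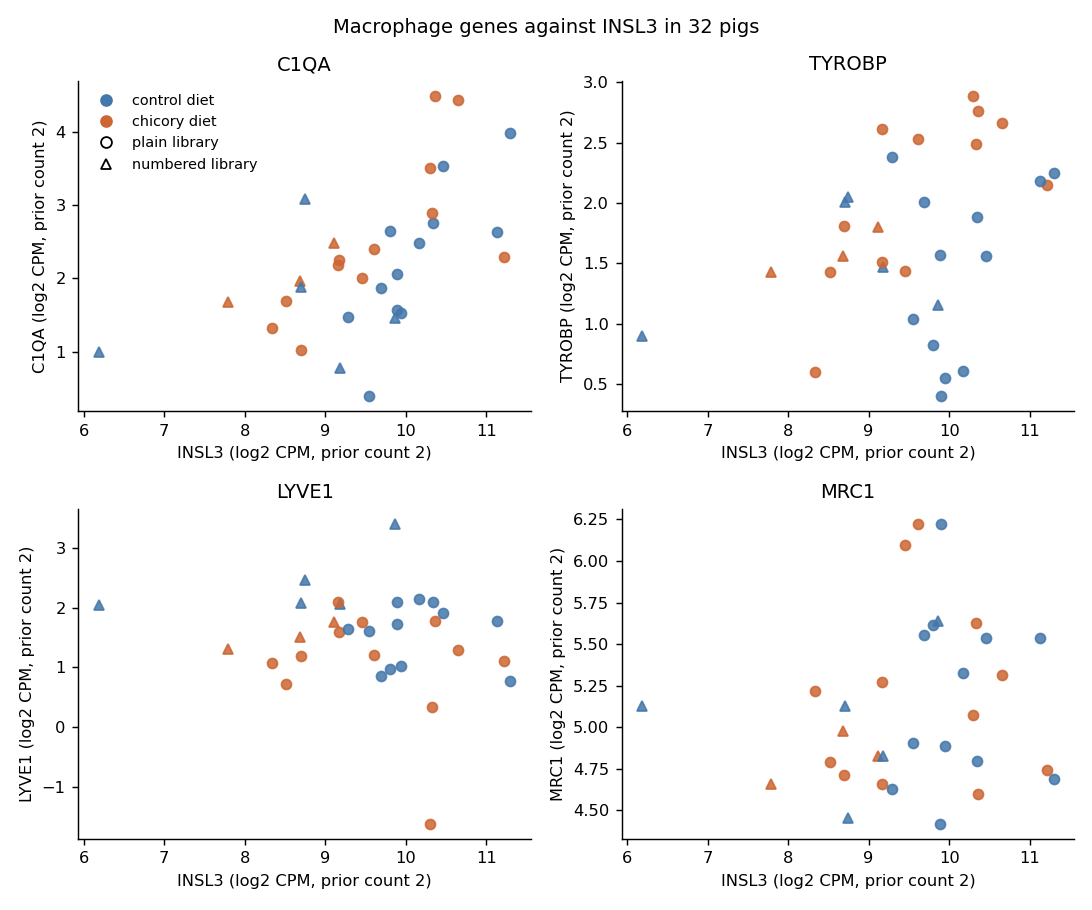
C1QA, TYROBP, LYVE1 and MRC1 (vertical axes) against INSL3 (horizontal axes), all as log2 CPM with a prior count of 2, in all 32 pigs. Circles are plain and triangles numbered libraries, blue is control and orange chicory diet. C1QA climbs with INSL3 among the circles (r = 0.65), while LYVE1 and MRC1 show no such climb (r = -0.05 and 0.02).

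Other cell type lists were read on the same INSL3 slope. Of the 9 tested Leydig genes other than INSL3, all had slopes above 0 and 6 rose, among them CYP11A1, the side-chain cleavage enzyme, at 0.78 (SE 0.0704, adjusted p = 1.2e-09) and CYP17A1, which makes androgen precursors, at 0.85 (SE 0.0803, adjusted p = 2.7e-09). Of 9 myeloid genes 8 had slopes above 0 and 2 rose: CTSS, a lysosomal protease of antigen-presenting cells, at 0.55 (SE 0.129, adjusted p = 0.0098), and CD53, a leukocyte tetraspanin, at 0.60 (SE 0.167, adjusted p = 0.0411). Of 7 resident macrophage genes 6 had slopes above 0 and none passed, the nearest being FOLR2, a folate receptor of resident macrophages, at 0.46 (SE 0.144, adjusted p = 0.0777). The myeloid median was 0.18 and the resident macrophage median 0.22, against 0.02 over all genes.

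Of 10 complement genes 8 had slopes above 0 and none passed, with a median of 0.34. SERPING1, the inhibitor of the C1 complex, had 0.36 (SE 0.105, adjusted p = 0.0571), and C3, the central complement component, had -0.30 (SE 0.141, adjusted p = 0.242). In the lymphatic list 1 of 6 rose, MMRN1, a secreted multimerin, at 0.56 (SE 0.157, adjusted p = 0.0428), while PROX1 had -0.25 (SE 0.104, adjusted p = 0.194). Blood endothelium had 1 of 8 called, the adhesion molecule PECAM1 at 0.43 (SE 0.114, adjusted p = 0.0289). Peritubular genes had 1 of 8 called, the matrix proteoglycan DCN at 0.26 (SE 0.0746, adjusted p = 0.0497). Called genes of Leydig cells, endothelium and peritubular cells stood beside C1QA, and their part in its slope was not tested.

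**Figure D5:**
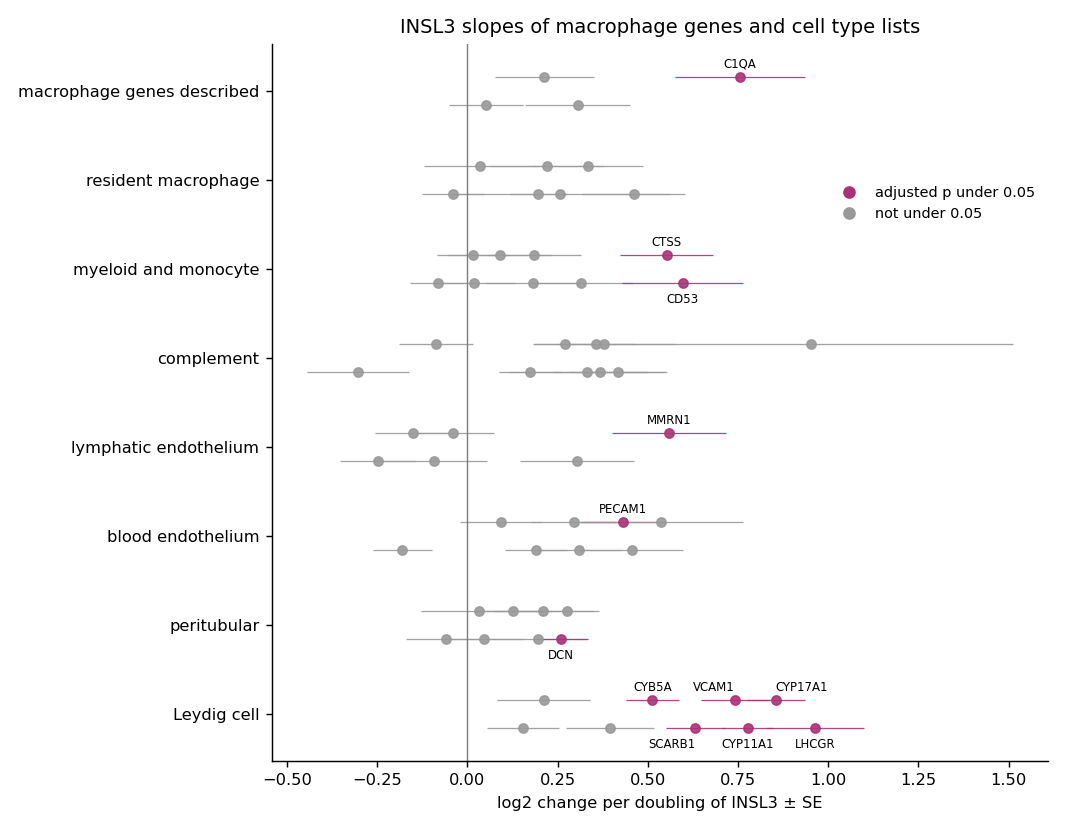
Log2 change per doubling of INSL3 (horizontal axis, points with SE bars) for the 4 tested macrophage genes and for 7 cell type lists (rows), from 1 fit over all 32 pigs. Purple points had an adjusted p under 0.05 and are named, grey points did not. C1QA, CTSS and CD53 are the named points in the macrophage and myeloid rows, and 6 of 9 Leydig genes are named.

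Correlations among the members differed in sign. Over the 6 pairs of tested members in the 24 plain libraries, r ran from -0.32 to 0.53 with a median of -0.09. The highest was TYROBP with C1QA, at r = 0.53 (permutation p = 0.00723, adjusted p = 0.0723) and rho = 0.54 (permutation p = 0.00689, adjusted p = 0.0723), with r = 0.53 again without the 2 pigs farthest from the TYROBP median. In the 8 numbered libraries the pair had r = 0.76 (exact permutation p = 0.0279, adjusted p = 0.186) and rho = 0.79 (exact permutation p = 0.0279, adjusted p = 0.186). Neither value passed after adjustment over the 40 tests. LYVE1 with TYROBP had r = -0.32 (permutation p = 0.12, adjusted p = 0.436) and rho = -0.17 (permutation p = 0.43, adjusted p = 0.819). Without the 2 pigs farthest from the LYVE1 median r was -0.04, so the negative value rested on those pigs. LYVE1 with MRC1 had r = 0.00 (permutation p = 0.999) in the plain libraries. In the 8 numbered ones r was 0.60 (exact permutation p = 0.119, adjusted p = 0.436), or -0.49 without the 2 pigs farthest from the LYVE1 median. MRC1 had r = -0.22 (plain) and -0.54 (numbered) with TYROBP, and 0.07 and -0.49 with C1QA. None of these passed the adjustment.

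The genes most like LYVE1 and TYROBP were found by Pearson's r of log2 CPM over all 32 pigs after taking out library set means. Depth and tissue makeup still differed between pigs, so these values are a description. For TYROBP the 10 highest named genes were MGMT (r = 0.73), MRPL11 (0.71), MRPS24 (0.70), CFD (0.70), COX8A (0.70), MRPS26 (0.69), VPS28 (0.69), LMNA (0.69), TMA7 (0.68) and FBXL12 (0.68). They include 3 proteins of the mitochondrial ribosome and CFD, the complement protease factor D. Over 12596 genes the median r with TYROBP was -0.02 and the 90th percentile 0.37. The 9 myeloid genes had r from -0.25 to 0.51 with a median of 0.13. The 2 highest were FCER1G at 0.51 and SPI1, the myeloid transcription factor PU.1, at 0.44. C1QA had 0.55 and LYVE1 -0.30. Without the 2 libraries set apart the 10 genes had 0.64 to 0.71 and C1QA 0.53, while LYVE1 had -0.13.

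For LYVE1 the 10 highest were DTWD2 (0.71), DNAH1 (0.70), RBM20 (0.70), GANC (0.69), ARHGEF37 (0.68), SORCS1 (0.68), POLH (0.67), SPATS2 (0.66), KLHL8 (0.66) and CHP1 (0.66). The 90th percentile over all genes was 0.44. All 10 spermatid genes had r above 0 with LYVE1, with a median of 0.48, and all 8 Sertoli genes had r below 0, with a median of -0.30. These values rested on few libraries. Without the 2 set apart the 10 highest genes had 0.15 to 0.40, and PRM1, a sperm protamine, went from 0.59 to 0.04. Of the lists LYVE1 could mark, resident macrophage genes had r from -0.21 to 0.47 and lymphatic genes from 0.02 to 0.46. Without those libraries STAB1 had the highest value of the resident macrophage genes, at 0.44, and MMRN1 of the lymphatic genes, at 0.37. STAB1 had risen from 0.07 and MMRN1 from 0.02, while FOLR2 fell from 0.47 to 0.04 and PROX1 from 0.39 to 0.08. Blood endothelium genes then ran from -0.09 (FLT1) to 0.47 (KDR), so such values were not particular to the first 2 lists.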

How the data were processed

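Testis mRNA of 32 pigs had been sequenced from a stranded TruSeq kit, per the labels' protocols. The submitters' processing notes name HTSeq 0.6.0, STAR, Trimmomatic 0.33, SAMtools 1.3.1 and cutadapt 1.8.1. The genome build and the strand setting are not given in the sources used here. The deposited values are read counts per gene, 1 table a pig, with no normalization by the authors. Reads assigned to no gene, 20.6% to 39.6% of each table, stayed out of library sizes. Symbols came from a table of gene identifiers.

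The members and lists were chosen with earlier results of these data known. Counts were scaled by TMM and tested with edgeR 4.0.16 in R 4.3.3 (filterByExpr, quasi-likelihood F test, Benjamini-Hochberg at 0.05 over all genes). AS group, diet and library set were the terms for diet and AS, log2 of androstenone plus 0.5 mg/kg with diet and library set for the slope, and log2 CPM of INSL3 with library set for the INSL3 slope. The SE is the estimate divided by the root of F. All 6 members with an identifier are named. Of each list counts, medians and example genes are given, some of them chosen after their values were seen. CPM used TMM sizes, and log2 CPM a prior count of 2. Correlations used 100000 permutations (exact for 8 libraries). Scripts were tested on simulated counts. Limma 3.58.1, DESeq2 1.42.0, other scalings, filters and terms, and leaving out each pig were the alternatives. Among 108 pairs of libraries within groups, chi-square per degree of freedom was 7.24 or more, so no library was taken as a duplicate. Litter mates were treated as independent unless sow is named. In plain libraries 1 read was worth 0.142 to 0.505 CPM, so values near that are imprecise.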

Additional observations from a re-analysis of the deposited data

Results flagged for a closer look

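Over 6 genes and 4 groups, 24 sets of values were examined, and 6 held a pig whose distance to the next pig, as a share of the whole range, was above Dixon's 95% value. Chance gives about 5% of such sets if values are normally distributed. CPM was used without a log, and all 6 pigs were at the high end. The share for skewed values was not tested, so 6 of 24 cannot be set against 5%. LYVE1 was 10.3 CPM (157 reads, a numbered library) in High AS control replicate 8, against 3.92 CPM in the next pig. Without that pig the LYVE1 diet fold was -0.57. C1QA was 21.4 CPM in High AS chicory replicate 4, against 5.27 CPM in the next pig, and 11.3 CPM in High AS control replicate 6, against 6.44 CPM. Their INSL3 was 1600 and 1410 CPM. MRC1 was 74.4 CPM in High AS control replicate 9, against 49.4 CPM, and 39.5 CPM in High AS chicory replicate 4, against 31.2 CPM. CD68 was 1.21 CPM in High AS control replicate 6, from 6 reads, against 0.56 CPM in the next pig.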

How the results depend on the processing

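The diet signs of LYVE1 and TYROBP held in each of the 14 other settings. These genes were chosen on the same pigs and each setting refit their counts, so this is a description and no test. The C1QA slope on INSL3 stayed above 0 in 14 of 14 settings and was called in 11. The AS count and the interaction count were 0 in each setting run. The 1 gene called for diet became 0 without the library set term, with limma voom, with a stricter filter, in plain libraries alone, with sow as a random effect and with all 32 pigs and no AS term (chosen after seeing the data), and 0 to 1 when single pigs were left out (0 without High AS chicory replicate 4, 5 or 7 or Low AS chicory replicate 3 or 5). The 3 genes called for androstenone became 0 without the library set term, with index set in its place, with sow as a fixed block or with carcass weight, 7 with DESeq2 and 9 with no filter, and 1 (without High AS chicory replicate 3 or Low AS chicory replicate 6) to 4 without single pigs. The 365 genes called for INSL3 became 2976 without the library set term, 84 with sow as a fixed block, 2020 with the Leydig list and 1197 with AS group and diet as terms, and 212 (without Low AS control replicate 5) to 607 (without High AS control replicate 8) without single pigs, with 240 without Low AS chicory replicate 5. The causes were not tested.

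Estimates near 0 changed sign. MRC1 for diet was 0.0011 in plain libraries and 0.074 with sow as a fixed block, and -0.13 to 0.036 without single pigs. C1QA for AS was 0.058 with sow as a fixed block, and -0.53 to 0.063 without single pigs. MRC1 for AS was -0.061 without the library set term, -0.042 in plain libraries, -0.13 with sow as a fixed block and -0.015 with INSL3 as a covariate, and -0.085 to 0.10 without single pigs. On androstenone C1QA was 0.23 with sow as a fixed block and -0.25 to 0.034 without single pigs, and MRC1 was 0.077 with carcass weight and -0.070 to 0.025 without single pigs. The interaction of LYVE1 was 0.12 without the library set term and 0.21 in plain libraries. On INSL3, LYVE1 was -0.030 without the library set term, and MRC1 was -0.016 to 0.095 without single pigs. Low counts limit LYVE1, TYROBP and C1QA, and CSF1R and CD68 most. Replicate numbers only name the pigs within each group, so blocks were made by sow.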

Other observations

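Some genes of the macrophage and myeloid lists, chosen here after their values were seen, differed in how well they were read. FCGR1A, an Fc receptor of monocytes, was read 23996 times (38.9 to 175 CPM), and its r with TYROBP was -0.25, or -0.06 without the 2 libraries set apart. FCER1G, in human and mouse the adaptor of that receptor, was read 521 times (0.74 to 8.59 CPM), and its r with TYROBP was 0.51, or 0.43 without them. CD209, a lectin of macrophages and dendritic cells, was read 6979 times and had an INSL3 slope of -0.04 (SE 0.0856, adjusted p = 0.812 in edgeR). MARCO, a scavenger receptor, was read 431 times, with a range of 0 to 15.1 CPM and a median of 0.985 CPM. CX3CR1, the fractalkine receptor of monocytes and tissue macrophages, was read 45 times over 17 of 32 libraries and was not tested.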
